A study of Mus musculus with 24 samples.

Results

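Neutrophils carry their proteins in granules, and 33 genes for those granules, for the receptors that guide the cells and for myeloid secreted products were followed here in 24 mouse lungs. The genes were taken by symbol from a list chosen with earlier results of these data known. All 33 are among the 23420 genes in each table. They were split by what their products do. The azurophil (primary) granule group held 4 genes, the specific and gelatinase granule group 6, and the group of surface receptors and adhesion molecules 13. The S100 pair, the interleukin-1 ligands and the oxidase genes were 2 each, and 4 further genes encode other secreted, enzymatic or nuclear products.

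Neutrophil granules are made in sequence while the cell matures in the bone marrow. Azurophil granule proteins are transcribed in promyelocytes, specific granule proteins in myelocytes, and gelatinase granule proteins later, whereas chemokine and formyl-peptide receptors are transcribed in mature cells that can leave the marrow. In the lung, neutrophils are held in the capillaries and enter the airspace when chemokines such as the CXCR2 ligands are released. Several of the 33 genes are not particular to neutrophils, since monocytes and macrophages also transcribe Il1b, Il1rn, Cybb, Itgam and Itgb2, and mast cells and basophils transcribe Hdc.

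RNA was sequenced from the left lobe of lungs in which Cre recombinase expressed from the Sox9 locus deleted a floxed planar cell polarity gene in the distal epithelium. One set of mutants lost Vangl2, which encodes a core membrane protein of the pathway, and the other lost Ror2, which encodes a Wnt5a receptor. Lungs were taken at postnatal days 2 (P2) and 5 (P5), which gave 8 groups of 3 lungs: Vangl2 mutants, Ror2 mutants and the separate controls of each at both ages. The genotype entry of every control is WT, while the titles call the controls of the Vangl2 tables Control(Vangl1/2), and the strain and the Cre or floxed alleles of the controls were not given in the sources used here. Groups followed the sample titles, because the genotype entries of the P2 Ror2 mutants and the P5 Vangl2 mutants name the other gene. Cre from the Sox9 locus is also made outside the lung, bone included, and whether it acted in the cells that give rise to neutrophils was not tested. Each gene and age has its own table of normalized read counts (reads divided by a size factor for the lung), and the 4 tables were normalized separately, so levels are compared within a table only.

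Between 13823693 and 21546673 reads on genes were recovered for each of 21 lungs. Vangl2 itself read 249, 302 and 281 in the control lungs and 241, 224 and 173 in the mutant lungs at P2 (log2 fold change -0.39 ± 0.18 SE, adjusted p = 0.241) and 369, 314 and 292 in the control lungs and 169.5, 148 and 166 in the mutant lungs at P5 (log2 fold change -1.0 ± 0.18 SE, adjusted p = 0.0604). Ror2 in the Ror2 tables overlapped between groups at both ages, with log2 fold changes of -0.38 (adjusted p = 0.25) and -0.16 (adjusted p = 0.691). The gene that was not the named target overlapped too. Vangl2 had log2 fold changes of -0.21 (adjusted p = 0.404) and -0.28 (adjusted p = 0.507) in Ror2 P2 and P5, and Ror2 of -0.01 (adjusted p = 0.968) and -0.48 (adjusted p = 0.348) in Vangl2 P2 and P5. In the Ror2 P5 table the point estimate was thus lower for Vangl2 than for Ror2, and these levels do not check the label of the Ror2 P5 mutants. These are whole-lobe values for genes also transcribed outside the epithelium. A pair of control lungs stood apart. Among genes over 20 normalized reads in both other controls, Ror2 P5 control 1 was at 0 for every gene on chromosomes 6, 8 and X, for all but 1 on chromosome 7 and all but 1 on chromosome 9, and for 610 of 852 on chromosome 5. Its values were set to missing for those chromosomes, which leaves 2 controls for 11 of the 33 genes (Clec4d, Clec4e, Mmp8, Ngp, Ltf, Camp, Pglyrp1, Cd177, Itgam, Ncf1 and Cybb). Ror2 P2 control 3 held the highest value of its 6 lungs for 25 of the 33 genes. Among the mutants, Vangl2 P2 mutant 3 was the highest of its 6 lungs for 22 of the 33 genes, and Vangl2 P5 mutant 3 for 19. Vangl2 P5 mutant 3 also had 1090.2 normalized reads of the T cell receptor subunit gene Cd3e. The other lungs of its table had 24.6 to 56.8.

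Per kilobase of exon, S100a9 and S100a8 had the highest control means of the 33 genes in every table, at 2517 and 1577 normalized reads per kilobase in Vangl2 P2. Ngp followed in Vangl2 P2 and P5 and in Ror2 P2, whereas Hdc, the histidine decarboxylase that makes histamine, came next in Ror2 P5 with 397 against 377 for Ngp, a gap within the spread of the control lungs. The 4 azurophil genes lay at the other end. Mpo, Elane, Prtn3 and Ctsg read between 1.73 and 10.3 per kilobase in the Vangl2 P2 controls, the 4 lowest values of the set. Counts of Elane reached 0 in 2 of those 3 controls, so changes of this gene rest on very few reads.

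Vangl2 mutant lungs at P2 held more RNA of the neutrophil genes than their controls. Of the 33 genes, 14 rose and 0 fell at an adjusted p under 0.05 (limma on log2 of the normalized count plus 1, adjusted over all 17448 genes tested), where 1.5% of all genes tested were higher and 2.09% lower. Every mutant lung lay above every control lung for 24 of the 33, against 14.6% of all genes, and below for 0, against 14.9%. The median log2 fold change of the 33 genes was 1.43, beside 0.00 over all genes tested, and it was above 0 for each of them. With 3 lungs against 3 the smallest p of an exact two-sided permutation test is 0.1, and all 14 genes were at that limit. In whole tissue a larger share of neutrophils, more RNA per neutrophil and RNA from other cells that transcribe these genes cannot be told apart.

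**Figure D1:**
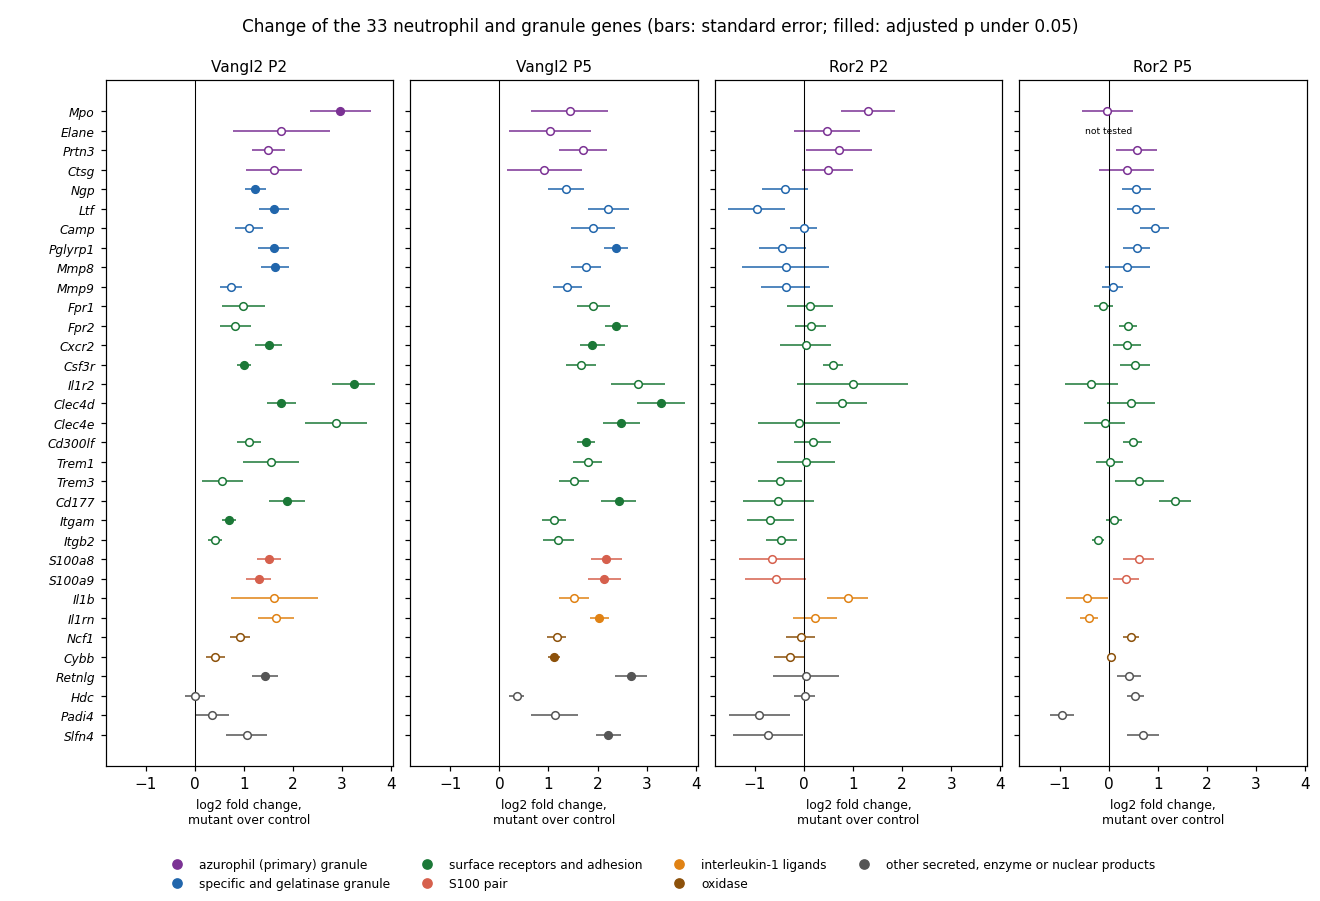
Log2 fold change of mutant over control lungs for each of the 33 genes (rows, coloured by role) in the 4 tables, with bars of 1 SE; filled points have an adjusted p under 0.05. Filled points number 14 in Vangl2 P2 and 13 in Vangl2 P5, all to the right of 0, and there are none in the Ror2 tables, where points lie on both sides of 0.

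Among the specific and gelatinase granule genes, 4 of 6 rose at P2 and the mutant lungs lay above the control lungs for all 6. Ngp, neutrophilic granule protein, had normalized read counts of 987, 669 and 1253 in the control lungs and 2022, 2252 and 2374 in the mutant lungs (log2 fold change 1.24 ± 0.21 SE, adjusted p = 0.0326). Ltf, which encodes the iron-binding lactotransferrin, read 386, 452 and 684 in the control lungs and 2093, 1706 and 956 in the mutant lungs (log2 fold change 1.61 ± 0.31 SE, adjusted p = 0.0378). Mutant 3 was the lowest mutant for Ltf and the highest for Ngp, so the lungs did not keep one order across genes of the same granule. Mmp8, neutrophil collagenase, read 212, 151 and 217 in the control lungs and 883, 571 and 418 in the mutant lungs (log2 fold change 1.64 ± 0.28 SE, adjusted p = 0.0326). Pglyrp1, a peptidoglycan-binding antibacterial protein, read 324, 315 and 474 in the control lungs and 971, 752 and 1875 in the mutant lungs (log2 fold change 1.60 ± 0.33 SE, adjusted p = 0.0413). Camp, the cathelicidin precursor, and Mmp9, gelatinase B, did not pass, with log2 fold changes of 1.11 (adjusted p = 0.0739) and 0.74 (adjusted p = 0.108).

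Of the azurophil genes, 1 of 4 rose at P2. Mpo, the myeloperoxidase that turns hydrogen peroxide into hypochlorous acid, read 8.43, 2.85 and 3.83 in the control lungs and 69.2, 67.9 and 16.3 in the mutant lungs (log2 fold change 2.97 ± 0.63 SE, adjusted p = 0.047). Mutants 1 and 2 carried most of that difference, and mutant 3 lay nearest to the controls. Prtn3, the serine protease proteinase 3, read 10.5, 8.54 and 12.4 in the control lungs and 37.2, 33.4 and 24.4 in the mutant lungs and did not pass (log2 fold change 1.5 ± 0.33 SE, adjusted p = 0.0522). Elane and Ctsg, the other serine proteases of this granule, had log2 fold changes of 1.76 and 1.62 with adjusted p of 0.33 and 0.154.

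Receptors rose in 6 of 13 cases at P2. Il1r2, the decoy receptor that binds interleukin-1 without signalling, had the largest change of the 33 genes, with 24.2, 12.3 and 37.4 in the control lungs and 336, 149.5 and 212 in the mutant lungs (log2 fold change 3.24 ± 0.44 SE, adjusted p = 0.0286). Cxcr2, the chemokine receptor through which neutrophils are recruited, read 188, 112 and 169 in the control lungs and 336, 406 and 604 in the mutant lungs (log2 fold change 1.51 ± 0.27 SE, adjusted p = 0.0328). Csf3r, the receptor for granulocyte colony-stimulating factor, read 796, 607 and 675 in the control lungs and 1259, 1297 and 1607 in the mutant lungs (log2 fold change 1.0 ± 0.14 SE, adjusted p = 0.0289). In each of these the lowest mutant lung was above the highest control lung. Clec4d, a C-type lectin that recognizes fungal and mycobacterial glycolipids, read 93.7, 61.6 and 104 in the control lungs and 303, 202 and 398 in the mutant lungs (log2 fold change 1.77 ± 0.30 SE, adjusted p = 0.0326). Cd177, a glycosylphosphatidylinositol-anchored surface protein of neutrophils, read 109.5, 99.6 and 110.1 in the control lungs and 741, 341 and 239 in the mutant lungs (log2 fold change 1.88 ± 0.37 SE, adjusted p = 0.0397). Cd177 was highest in mutant 1, unlike Clec4d and Cxcr2, which were highest in mutant 3. The integrin alpha chain Itgam (CD11b) had the smallest change that passed, with 397, 449 and 426 in the control lungs and 819, 587 and 668 in the mutant lungs (log2 fold change 0.69 ± 0.15 SE, adjusted p = 0.0458). Its beta chain Itgb2, with 649.9, 673 and 777 in the control lungs and 879, 819 and 1105 in the mutant lungs, did not pass (log2 fold change 0.41 ± 0.14 SE, adjusted p = 0.148). The other 6 receptors (Fpr1, Fpr2, Clec4e, Cd300lf, Trem1 and Trem3) had log2 fold changes of 0.56 to 2.88 and adjusted p of 0.0508 to 0.465.

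Both members of the S100 pair, which form the calcium-binding heterodimer calprotectin, rose at P2. S100a8 read 904, 546 and 849.5 in the control lungs and 1818, 1812 and 2923 in the mutant lungs (log2 fold change 1.51 ± 0.24 SE, adjusted p = 0.0319). S100a9 read 1432, 1011 and 1499 in the control lungs and 2285, 3088 and 4593 in the mutant lungs (log2 fold change 1.30 ± 0.26 SE, adjusted p = 0.0397). The highest mutant for both was mutant 3. Retnlg, a resistin-like protein of marrow and blood neutrophils, read 220.1, 189.7 and 342 in the control lungs and 479.6, 758 and 768 in the mutant lungs (log2 fold change 1.43 ± 0.27 SE, adjusted p = 0.0339). The interleukin-1 ligands did not pass. Il1b, the inflammatory cytokine, read 161, 94.8 and 153 in the control lungs and 138, 234 and 2151 in the mutant lungs (log2 fold change 1.62 ± 0.89 SE, adjusted p = 0.324), where mutant 3 was far above all other lungs and mutant 1 lay among the controls. Il1rn, the receptor antagonist, read 203, 174 and 176 in the control lungs and 600.5, 318 and 1014 in the mutant lungs, with no overlap (log2 fold change 1.65 ± 0.37 SE, adjusted p = 0.0541). Neither oxidase gene passed. Ncf1, the p47phox subunit, read 585, 477 and 468 in the control lungs and 1281, 727 and 950.4 in the mutant lungs (log2 fold change 0.92 ± 0.21 SE, adjusted p = 0.0542) and Cybb, the membrane subunit gp91phox, 1004, 788 and 807 in the control lungs and 879.6, 1152 and 1497 in the mutant lungs (log2 fold change 0.42 ± 0.20 SE, adjusted p = 0.258). Hdc had the smallest difference of the set, at 1599.9, 1500.4 and 1195 in the control lungs and 1467, 1077 and 1861 in the mutant lungs (log2 fold change 0.01 ± 0.20 SE, adjusted p = 0.981). Padi4, which citrullinates histones, and Slfn4, a schlafen family gene, had log2 fold changes of 0.35 (adjusted p = 0.565) and 1.06 (adjusted p = 0.184).

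The count of 14 depended on single lungs and on the fit. It was 1 without control 1, 0 without control 2, control 3 or mutant 2, 10 without mutant 1 and 19 without mutant 3, while the median log2 fold change stayed between 1.14 and 1.44 in all 6. When the 12 P2 lungs shared one estimate of the spread, 0 of 33 passed.

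At P5 the Vangl2 mutant lungs again held more RNA of these genes. At an adjusted p under 0.05, 13 of the 33 rose and 0 fell, where 0.534% of the 17410 genes tested were higher and 0.0287% lower. Every mutant lung lay above every control lung for 29 of 33, against 13.2% of all genes, and below for 0, against 12.5%. The median log2 fold change was 1.77 beside 0.00 over all genes tested. By role, the median at P5 was 2.16 for the S100 pair, 1.90 for receptors, 1.84 for specific and gelatinase granule genes and 1.23 for azurophil genes, where the medians at P2 were 1.40, 1.11, 1.42 and 1.69 in the same order. Lungs that share a replicate number departed from their group means together for all 3 numbers in this table (correlations of 0.485, 0.484 and 0.289), and in the other tables at least 1 number had a correlation below 0.1. A fit that blocks on that number called 27 of 33 higher, among them all 13. The share of all genes called by that fit is not given here, so this count has no background beside it.

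All 13 receptors lay above the controls in every mutant lung at P5, and 6 passed. Clec4d had the largest change of the 33 genes, with 44.7, 44.7 and 12.1 in the control lungs and 238, 314 and 336 in the mutant lungs (log2 fold change 3.29 ± 0.49 SE, adjusted p = 0.0369). Its neighbour Clec4e, the Mincle receptor for mycobacterial cord factor, read 46.5, 34.1 and 17.1 in the control lungs and 201, 170.1 and 152 in the mutant lungs (log2 fold change 2.48 ± 0.38 SE, adjusted p = 0.0386). The groups of both lectins were far apart, and control 3 was the lowest lung for each. Fpr2, a formyl-peptide receptor that senses bacterial and mitochondrial peptides, read 97.6, 76.4 and 63.5 in the control lungs and 498, 384 and 360.1 in the mutant lungs (log2 fold change 2.38 ± 0.24 SE, adjusted p = 0.0141). Cxcr2 read 94.9, 98.7 and 73.6 in the control lungs and 345, 248 and 426 in the mutant lungs (log2 fold change 1.90 ± 0.25 SE, adjusted p = 0.0246). Cd177 read 125, 44.7 and 65.5 in the control lungs and 448, 327 and 407 in the mutant lungs (log2 fold change 2.43 ± 0.36 SE, adjusted p = 0.0375). Cd300lf, an inhibitory receptor of myeloid cells, read 155, 138 and 119.9 in the control lungs and 459, 516 and 429 in the mutant lungs (log2 fold change 1.76 ± 0.18 SE, adjusted p = 0.0141) with little spread among the mutants. The other 7 receptors had log2 fold changes from 1.1 for Itgam to 2.82 for Il1r2 and adjusted p of 0.0514 to 0.116. All 7 passed with the block (adjusted p = 0.00937 to 0.0355), a count without a share over all genes. Csf3r read 395, 294 and 186 in the control lungs and 1205, 691 and 825 in the mutant lungs. Itgb2 read 718, 453 and 438 in the control lungs and 1180.4, 801 and 1835 in the mutant lungs.

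The S100 pair rose again at P5. S100a8 read 909, 581 and 650.0 in the control lungs and 2003, 3345 and 4788 in the mutant lungs (log2 fold change 2.18 ± 0.31 SE, adjusted p = 0.0316). S100a9 read 1491, 1461 and 1169 in the control lungs and 3302, 7893 and 8332 in the mutant lungs (log2 fold change 2.14 ± 0.33 SE, adjusted p = 0.0422). For both, mutant 1 was the lowest of the mutant lungs and still above every control. The interleukin-1 receptor antagonist Il1rn rose with little spread, at 126, 110.5 and 87.7 in the control lungs and 415, 458 and 453 in the mutant lungs (log2 fold change 2.04 ± 0.20 SE, adjusted p = 0.0141). Il1b, with 101, 68.2 and 80.6 in the control lungs and 349, 170.1 and 229 in the mutant lungs, passed only with the block (log2 fold change 1.53 ± 0.30 SE, adjusted p = 0.0754, blocked adjusted p = 0.0126). Cybb read 694, 831 and 722 in the control lungs and 1734, 1529 and 1595 in the mutant lungs (log2 fold change 1.11 ± 0.13 SE, adjusted p = 0.0148). Ncf1 read 399, 316 and 359.8 in the control lungs and 648, 774 and 1028 in the mutant lungs (log2 fold change 1.17 ± 0.20 SE, adjusted p = 0.0541, blocked adjusted p = 0.0172). Retnlg read 161, 96.4 and 102 in the control lungs and 606, 567 and 1236 in the mutant lungs (log2 fold change 2.68 ± 0.33 SE, adjusted p = 0.0202). Slfn4 read 33.8, 34.1 and 37.3 in the control lungs and 196, 136 and 172 in the mutant lungs (log2 fold change 2.22 ± 0.25 SE, adjusted p = 0.0148). Hdc read 1916, 1481 and 1946 in the control lungs and 2134, 2589 and 2073 in the mutant lungs and did not pass (log2 fold change 0.35 ± 0.16 SE, adjusted p = 0.283, blocked adjusted p = 0.183), nor did Padi4 (log2 fold change 1.13, blocked adjusted p = 0.101).

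Granule genes were more mixed at P5. Pglyrp1 read 216, 130.5 and 252 in the control lungs and 1073, 885 and 1059 in the mutant lungs (log2 fold change 2.38 ± 0.25 SE, adjusted p = 0.0141) and was the one specific or gelatinase granule gene of 6 that passed without the block. Ltf read 576, 316 and 573 in the control lungs and 1633, 1479.6 and 4392 in the mutant lungs (log2 fold change 2.22 ± 0.42 SE, adjusted p = 0.0652, blocked adjusted p = 0.00937) and Ngp 1374, 825 and 1359 in the control lungs and 1649.6, 3348 and 4664 in the mutant lungs (log2 fold change 1.35 ± 0.37 SE, adjusted p = 0.125, blocked adjusted p = 0.0418). All 6 passed with the block, again a count without a share over all genes, and for all 6 the mutant lungs lay above the controls. None of the 4 azurophil genes passed in either fit. Mpo read 9.12, 3.53 and 11.1 in the control lungs and 7.33, 17.9 and 67.9 in the mutant lungs (log2 fold change 1.43 ± 0.78 SE, adjusted p = 0.366, blocked adjusted p = 0.169), where mutant 1 lay below 2 of the controls. Prtn3 read 5.47, 2.35 and 7.05 in the control lungs and 19.2, 12.3 and 21.45 in the mutant lungs (log2 fold change 1.70 ± 0.49 SE, adjusted p = 0.134, blocked adjusted p = 0.0517), without overlap. Elane and Ctsg stayed at or below 9.83 normalized reads in all 6 lungs.

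The P5 count also rested on single lungs. It was 7 without control 1, 1 without control 2, 4 without control 3, 2 without mutant 1, 8 without mutant 2 and 0 without mutant 3, the lung with the high Cd3e value, and the median log2 fold change stayed between 1.65 and 1.95. The number was 26 when the 12 P5 lungs shared one estimate of the spread, a count also without a share over all genes.

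**Figure D2:**
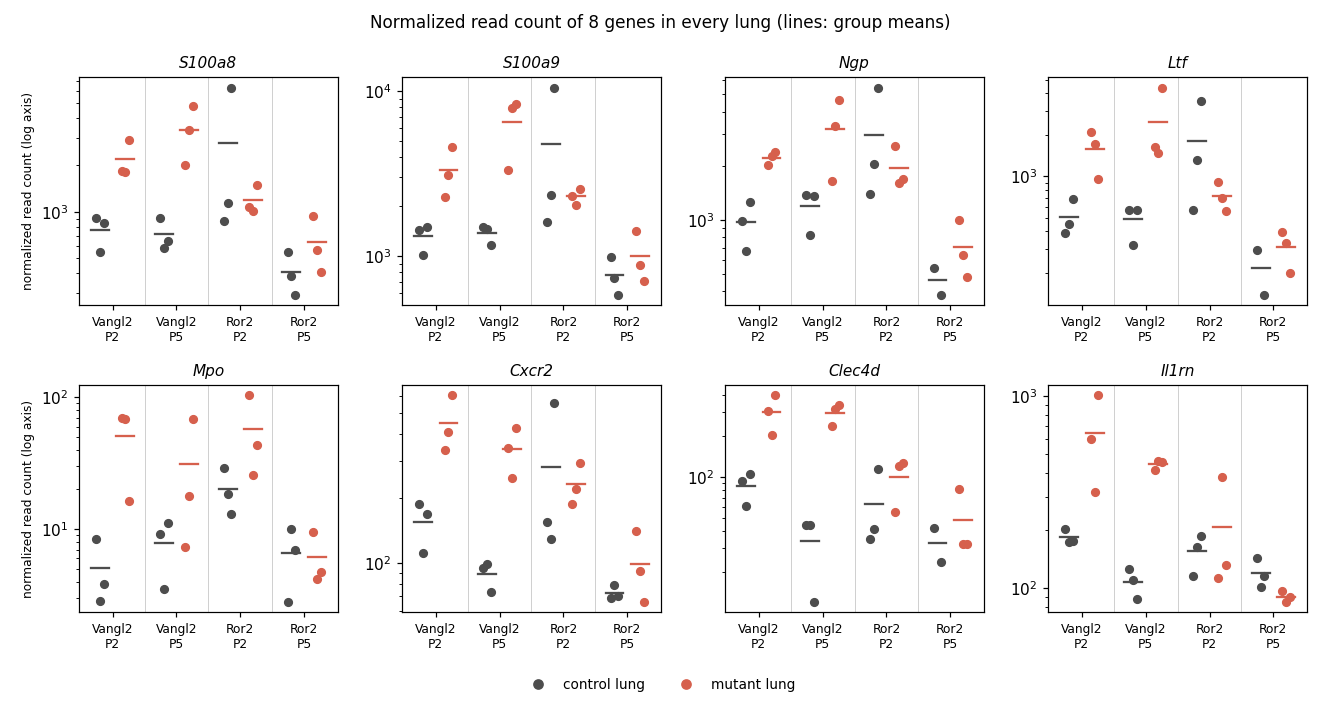
Normalized read count (log axis) of 8 genes in each control lung (grey) and mutant lung (red) of the 4 tables, with lines at the group means. The tables were normalized separately, so only points within a table are comparable; mutant points of Cxcr2, Clec4d and the S100 pair lie above the control points in both Vangl2 tables, and Ror2 P2 control 3 is the highest point of its table for S100a8, S100a9, Ngp, Ltf and Cxcr2.

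Across the ages, 20 of the 33 genes passed at P2, at P5 or at both in Vangl2 mutants. The 7 that passed at both ages were Cd177, Clec4d, Cxcr2, Pglyrp1, Retnlg, S100a8 and S100a9, which is 50% of the 14 and 53.8% of the 13. The ages have separate mutants and separate controls. For 22 genes every mutant lung exceeded every control lung at both ages. Counts over the 2 ages together were not made for all genes. At single ages, 14.6% of all genes had every mutant lung above at P2 and 13.2% at P5, and 1.5% and 0.534% were called higher. The change at P5 minus the change at P2 was positive for 27 of 33 genes with a median of 0.61, and 0 of 33 differences passed in limma (0% of 17068 genes tested). An unadjusted p under 0.05 was found for 5 of the 33, against 1442 of the 17068 genes. The largest of those 5 was Fpr2, at 1.55 ± 0.43 SE, adjusted p = 0.577. Mpo was the gene with the most negative difference, at -1.54 ± 1.09 SE, adjusted p = 0.689.

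Promoter sequence is shown for genes that rose at one age or both, from each of the S100, granule, receptor and secreted groups, to place the letters of myeloid factors beside the values. The RefSeq windows (GRCm38.p6) hold 250 bases before the first transcribed base, and bases that GENCODE places inside the gene were left off, so S100a8, Ltf and Cxcr2 are shorter. Capitals mark TTGCNNAA, letters bound by C/EBP factors, and GAGGAA, the core bound by PU.1, on either strand, in which case they read TTNNGCAA and TTCCTC.
S100a8 (chr3:90668821-90668977, plus strand): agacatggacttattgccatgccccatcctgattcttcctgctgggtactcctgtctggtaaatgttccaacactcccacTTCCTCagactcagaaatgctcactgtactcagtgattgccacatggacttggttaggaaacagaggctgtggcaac
S100a9 (chr3:90695722-90695971, minus strand): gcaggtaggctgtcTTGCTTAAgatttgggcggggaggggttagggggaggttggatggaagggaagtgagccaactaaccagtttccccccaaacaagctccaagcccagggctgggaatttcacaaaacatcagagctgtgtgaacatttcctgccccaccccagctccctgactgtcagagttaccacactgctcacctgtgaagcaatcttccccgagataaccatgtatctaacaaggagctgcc
Ltf (chr9:111019042-111019270, plus strand): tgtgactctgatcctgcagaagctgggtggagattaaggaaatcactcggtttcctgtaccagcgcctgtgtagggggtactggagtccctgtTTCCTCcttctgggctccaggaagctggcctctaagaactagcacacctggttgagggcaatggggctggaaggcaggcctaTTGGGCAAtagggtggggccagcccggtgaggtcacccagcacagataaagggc
Mmp8 (chr9:7558179-7558428, plus strand): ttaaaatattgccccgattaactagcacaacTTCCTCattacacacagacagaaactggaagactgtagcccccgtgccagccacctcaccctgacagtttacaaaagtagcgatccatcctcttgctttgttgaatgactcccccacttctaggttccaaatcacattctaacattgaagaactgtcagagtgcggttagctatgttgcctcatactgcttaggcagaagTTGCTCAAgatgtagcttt
Cxcr2 (chr1:74153744-74153988, plus strand): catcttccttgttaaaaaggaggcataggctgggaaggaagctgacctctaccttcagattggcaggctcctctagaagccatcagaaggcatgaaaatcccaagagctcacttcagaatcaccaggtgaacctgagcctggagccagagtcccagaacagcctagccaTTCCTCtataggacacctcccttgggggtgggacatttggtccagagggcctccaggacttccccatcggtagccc
Retnlg (chr16:48872358-48872607, plus strand): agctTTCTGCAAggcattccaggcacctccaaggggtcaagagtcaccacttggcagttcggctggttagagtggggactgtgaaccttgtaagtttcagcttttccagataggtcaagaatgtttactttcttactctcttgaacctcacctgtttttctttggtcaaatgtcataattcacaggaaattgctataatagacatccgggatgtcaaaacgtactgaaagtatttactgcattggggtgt

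S100a8 and S100a9 lie 22.6 kb apart on chromosome 3 and are transcribed toward each other, and the S100a8 window holds TTCCTC where the S100a9 window holds TTGCTTAA. Windows of Ltf and Mmp8 hold both kinds of letters. Windows were found for 30 of the 33 genes (not for Mmp9, Trem3 and Itgb2). In the full 250 bases, GAGGAA was found in 17 of the 30, or 56.7%, beside 23.1% of 27025 promoters, and TTGCNNAA in 6 of the 30, or 20%, beside 9.55%. The TATA box letters TATAAA, on the gene's strand, were in 8 of the 30, or 26.7%, beside 8.12%. The matches describe sequence only, and no factor was measured on these windows.

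In Ror2 mutants at P2 no gene of the set passed. Of 33 genes tested 0 rose and 0 fell in limma, where 0% of the 17541 genes tested passed in either direction, and edgeR and DESeq2 on recovered reads each called 0. In limma 2 of the 33 had an unadjusted p under 0.05, against 3380 of the 17541 genes. The groups overlapped for all 33, where 13.4% of all genes had every mutant lung above and 12.2% every mutant lung below the controls. The median log2 fold change was -0.01, beside -0.01 over all genes. The S100 pair was lower in the mutants by point estimate, with 1 control lung far above the rest. S100a8 read 869, 1138 and 6308 in the control lungs and 1073, 1004 and 1488 in the mutant lungs (log2 fold change -0.65 ± 0.68 SE, adjusted p = 0.607). S100a9 read 1604, 2351 and 10468 in the control lungs and 2306, 2030.0 and 2557 in the mutant lungs (log2 fold change -0.57 ± 0.62 SE, adjusted p = 0.622). Control 3 exceeded every other lung of the table for both, and the remaining 5 lungs overlapped. Ngp read 1398, 2043 and 5437 in the control lungs and 2569.5, 1609 and 1678 in the mutant lungs (log2 fold change -0.39 ± 0.47 SE, adjusted p = 0.658). Ltf read 576, 1325 and 3516 in the control lungs and 913, 699 and 561 in the mutant lungs (log2 fold change -0.97 ± 0.58 SE, adjusted p = 0.38). Cxcr2 read 156, 129.6 and 556 in the control lungs and 188, 222 and 292 in the mutant lungs (log2 fold change 0.04 ± 0.52 SE, adjusted p = 0.972). The azurophil gene Mpo did not share the high value of control 3, at 28.9, 18.4 and 13.04 in the control lungs and 104, 25.6 and 43.1 in the mutant lungs (log2 fold change 1.31 ± 0.54 SE, adjusted p = 0.252). Without control 3 the median log2 fold change was 0.37 and 0 of 33 passed.

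Of the other roles, the genes with the highest levels did not pass in this table either. Itgb2 read 487, 714 and 1266 in the control lungs and 515, 602 and 543 in the mutant lungs (log2 fold change -0.46 ± 0.31 SE, adjusted p = 0.427), and Ncf1 read 440.4, 502 and 1012 in the control lungs and 539.8, 528 and 679 in the mutant lungs (log2 fold change -0.07 ± 0.30 SE, adjusted p = 0.914). Cybb read 690.0, 908 and 1733 in the control lungs and 786, 999 and 759.5 in the mutant lungs (log2 fold change -0.29 ± 0.31 SE, adjusted p = 0.624). Control 3 was the highest lung for all 3 of these genes. Csf3r read 481, 469 and 774 in the control lungs and 745, 906 and 874 in the mutant lungs (log2 fold change 0.58 ± 0.20 SE, adjusted p = 0.215), and here control 3 was above 1 mutant lung only. Retnlg read 219.7, 225 and 915 in the control lungs and 303, 204 and 791 in the mutant lungs (log2 fold change 0.04 ± 0.67 SE, adjusted p = 0.979), with 1 lung of each group far above the others. The interleukin-1 genes had their highest value in mutant 2. Il1b read 81.5, 123 and 137 in the control lungs and 128, 396 and 175 in the mutant lungs (log2 fold change 0.89 ± 0.42 SE, adjusted p = 0.288) and Il1rn 116, 164 and 187 in the control lungs and 113, 380.2 and 132 in the mutant lungs (log2 fold change 0.22 ± 0.45 SE, adjusted p = 0.805). Hdc read 917, 1408 and 1754 in the control lungs and 1409, 1332 and 1234 in the mutant lungs (log2 fold change 0.01 ± 0.22 SE, adjusted p = 0.981), with the mutant lungs inside the range of the controls. Prtn3 read 8.25, 6.43 and 38.2 in the control lungs and 33.8, 16.1 and 18.9 in the mutant lungs (log2 fold change 0.71 ± 0.66 SE, adjusted p = 0.564).

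At P5 the Ror2 mutants had 0 of 32 genes called in limma (Elane was not tested, with at most 3.17 normalized reads), where 0.0873% of the 17177 genes tested were higher and 0.0931% lower. An unadjusted p under 0.05 was found for 6 of the 32, against 3178 of the 17177 genes, a similar share. The median log2 fold change was 0.39, beside 0.00 over all genes. Mutant lungs lay above the controls for 5 genes and below for 2, against 15.6% and 14.4% of all genes. The 5 were Camp, Cd177, Cd300lf, Ncf1 and Hdc, named after their values were seen, and 3 of them had 2 controls. Cd177 read 44.2 and 31.8 in control lungs 2 and 3 and 119.5, 115 and 67.8 in the mutant lungs (log2 fold change 1.36 ± 0.32 SE, adjusted p = 0.133). Hdc read 1064, 948 and 839.5 in the control lungs and 1765, 1381 and 1074 in the mutant lungs (log2 fold change 0.54 ± 0.17 SE, adjusted p = 0.18). Both passed when mutant 3 was left out, giving a count of 2. The 2 that lay below were Padi4, with 54.1, 56.2 and 53.6 in the control lungs and 25.4, 35.5 and 23.9 in the mutant lungs (log2 fold change -0.95 ± 0.24 SE, adjusted p = 0.134), and Il1rn, with 144, 101 and 115 in the control lungs and 96.2, 84.6 and 89.7 in the mutant lungs (log2 fold change -0.40 ± 0.18 SE, adjusted p = 0.292). S100a8 read 546, 382 and 291 in the control lungs and 939, 562 and 408 in the mutant lungs (log2 fold change 0.61 ± 0.32 SE, adjusted p = 0.344), where control 1 was above mutant 3. S100a9 read 989.7, 737 and 582.5 in the control lungs and 1425, 882 and 705 in the mutant lungs (log2 fold change 0.35 ± 0.27 SE, adjusted p = 0.507). Ngp read 540.2 and 382 in control lungs 2 and 3 and 992, 636 and 483 in the mutant lungs (log2 fold change 0.57 ± 0.30 SE, adjusted p = 0.352). Mutant 1 held the highest value for 12 of the 21 genes tested that were measured in all 6 lungs, and for 20 of the 32 with the 11 genes that lack control 1. Without control 3 the median log2 fold change was 0.09.

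The remaining high genes of each role overlapped between the Ror2 groups at P5, apart from Ncf1. Ltf read 292 and 139 in control lungs 2 and 3 and 395, 330.0 and 200.4 in the mutant lungs (log2 fold change 0.56 ± 0.38 SE, adjusted p = 0.462). Csf3r read 206, 250 and 220.3 in the control lungs and 536, 309 and 209.9 in the mutant lungs (log2 fold change 0.54 ± 0.30 SE, adjusted p = 0.37), where mutant 3 lay among the controls. Itgb2 read 539, 574 and 467 in the control lungs and 389, 456 and 515 in the mutant lungs (log2 fold change -0.22 ± 0.13 SE, adjusted p = 0.39), and Cybb 628 and 586 in control lungs 2 and 3 and 635, 599.5 and 659 in the mutant lungs (log2 fold change 0.06 ± 0.09 SE, adjusted p = 0.769). Ncf1 read 281 and 273 in control lungs 2 and 3 and 448, 388 and 315 in the mutant lungs (log2 fold change 0.45 ± 0.16 SE, adjusted p = 0.222). Retnlg read 87.7, 96.4 and 74.4 in the control lungs and 154, 111 and 87.8 in the mutant lungs (log2 fold change 0.41 ± 0.24 SE, adjusted p = 0.377), and Il1b 311, 103 and 103 in the control lungs and 143, 88.8 and 104 in the mutant lungs (log2 fold change -0.44 ± 0.42 SE, adjusted p = 0.592), where control 1 was the highest lung. The azurophil genes stayed low, Mpo at 2.80, 10.04 and 6.95 in the control lungs and 9.51, 4.18 and 4.77 in the mutant lungs (log2 fold change -0.03 ± 0.52 SE, adjusted p = 0.983) and Prtn3 at 12.1, 11.1 and 6.95 in the control lungs and 25.4, 11.5 and 11.4 in the mutant lungs (log2 fold change 0.57 ± 0.41 SE, adjusted p = 0.483).

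Changes in Vangl2 and Ror2 mutants were compared directly in one model per age. At P2 the Vangl2 change exceeded the Ror2 change for 33 of 33 genes with a median of 1.29, yet 0 passed in limma (0% of 17137 genes tested, lowest adjusted p = 0.946). An unadjusted p under 0.05 was found for 13 of the 33, against 788 of the 17137 genes. The Ror2 P2 change includes control 3, which was the highest of its 6 lungs for 25 of the 33 genes. Without that lung the Ror2 P2 median was higher. At P5 the Vangl2 change was larger for 31 of 32 genes with a median of 1.49. The unadjusted p was under 0.05 for 24 of the 32, against 799 of 16886 genes tested. Of the 32 genes 1 passed, where 0.0118% of all genes tested did. That gene was Il1rn, which was higher in Vangl2 mutants and lower by point estimate in Ror2 mutants (difference in log2 fold change 2.43 ± 0.26 SE, adjusted p = 0.00835). Fpr2 and Cybb came next (1.99 ± 0.30 SE, adjusted p = 0.0785, and 1.06 ± 0.15 SE, adjusted p = 0.0785). In Ror2 mutants the P5 change minus the P2 change had a median of 0.34, and 0 of 32 passed (0% of 16990 genes tested). An unadjusted p under 0.05 was found for 0 of the 32, against 1613 of the 16990 genes.

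**Figure D3:**
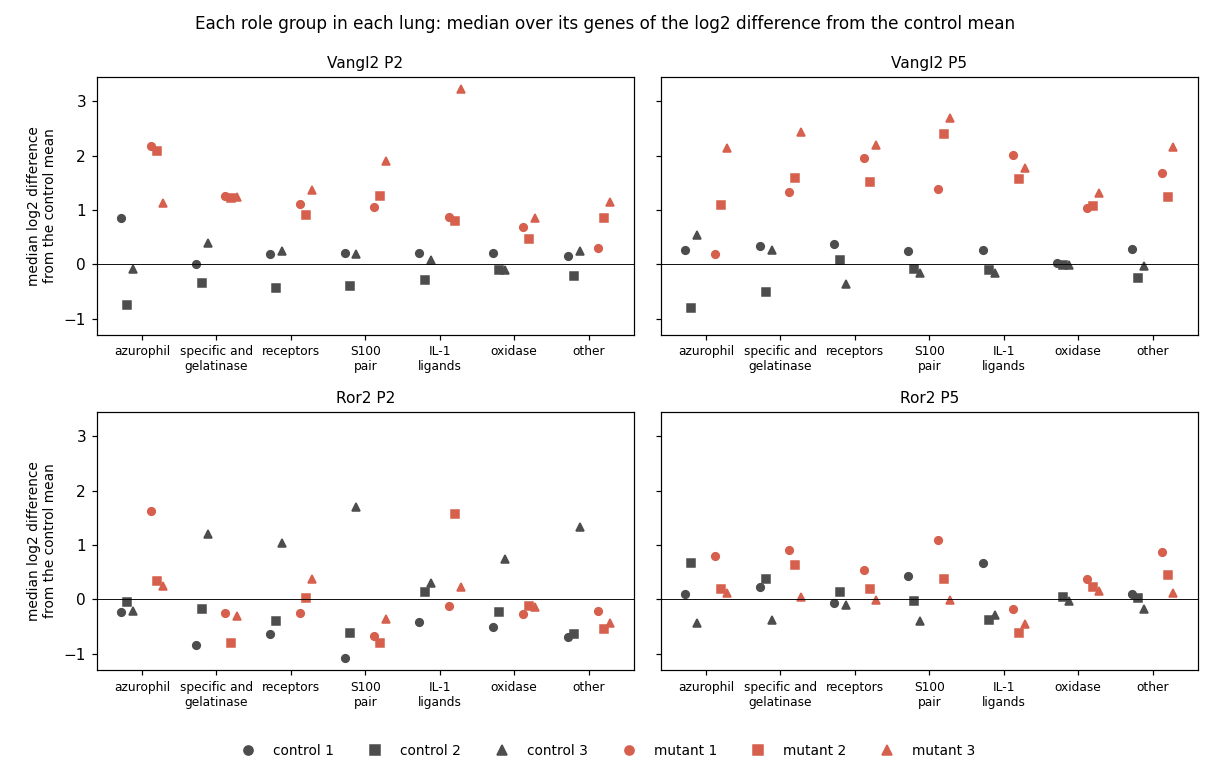
For each lung (shape: replicate number; grey: control; red: mutant), the median over the genes of each role group of the log2 difference from the mean of the table's controls. Vangl2 P2 mutants separate from controls in all 7 groups, from 1.23 to 1.26 in the specific and gelatinase group; Vangl2 P5 mutant 1 falls to 0.18 in the azurophil group; and Ror2 P2 control 3 reaches 1.70 in the S100 pair.

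The makeup of the set within a lung does not depend on scaling. The 33 genes together took 0.047% to 0.06% of all normalized counts in the Vangl2 P2 controls and 0.103% to 0.143% in the mutants, and 0.043% to 0.056% against 0.12% to 0.234% at P5. In Ror2 P2, control 3 reached 0.236%, and the other 5 lungs lay between 0.055% and 0.081%. The S100 pair made up 16.7% to 38.7% of the set's counts in the 23 lungs with every gene measured, and the azurophil genes 0.113% to 1.07%. Azurophil genes made up 0.593% and 0.595% of the set in Vangl2 P2 mutants 1 and 2 but 0.166% in mutant 3, within the range of the controls (0.132% to 0.284%). S100a9 counts were 1.26 to 2.52 times those of S100a8 in all 24 lungs.

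Other genes of the same biology were read from lists beside the 33. Of 19 further neutrophil genes measured, 5 rose at P2 and 5 at P5 in Vangl2 mutants, against 1.5% and 0.534% of all genes tested. None fell, and 0 passed in either Ror2 table, with medians of 0.68, 1.38, 0.06 and 0.29 over the 4 tables. Lcn2, an iron-siderophore-binding protein of specific granules that epithelium also makes, read 1638, 1031 and 1037 in the control lungs and 17109, 3036 and 10614 in the mutant lungs at P2 (log2 fold change 2.77 ± 0.56 SE, adjusted p = 0.0411) and 1399, 800.5 and 1159.9 in the control lungs and 6069, 5295 and 3829 in the mutant lungs at P5 (log2 fold change 2.19 ± 0.24 SE, adjusted p = 0.0148). Lrg1, a leucine-rich glycoprotein, passed at both ages (log2 fold changes 2.41 and 2.93). Asprv1, Olfm4 and Anxa1 passed at P2 only, and Mcemp1, Alox5ap and Stfa2l1 at P5 only, a difference between ages that was not tested for these genes.

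Ligands and growth factors for neutrophils had 0 of 10 called in Vangl2 P2 with a median log2 fold change of 2.60, and 0 of 11 in Vangl2 P5 with a median of 1.30. The spread between mutant lungs was wide. Cxcl2, a CXCR2 ligand, read 7.37, 6.64 and 1.92 in the control lungs and 64.1, 32.5 and 1315 in the mutant lungs at P2 (log2 fold change 4.64 ± 1.24 SE, adjusted p = 0.0842). Cxcl5 read 8.43, 6.64 and 24.9 in the control lungs and 20.7, 94.4 and 3096 in the mutant lungs (log2 fold change 3.92 ± 1.58 SE, adjusted p = 0.197). Mutant 3 had the highest values of both and of Il1b. Csf3, the growth factor that binds Csf3r, read 0, 0 and 0.958 in the control lungs and 7.24, 0.983 and 155 in the mutant lungs and was not tested. At P5 Cxcl3 had the lowest adjusted p of the list (log2 fold change 2.99 ± 0.51 SE, adjusted p = 0.0554). In the Ror2 tables the medians were 0.67 and 0.46 with 0 called. Of 7 granulocyte transcription factors, Runx1 and Klf5 rose in Vangl2 P2 (log2 fold changes 0.62 and 1.04, both also transcribed outside granulocytes), where 1.5% of all genes rose, and 0 passed elsewhere. Cebpe, which drives specific granule genes, had log2 fold changes from -0.14 to 0.89 over the 4 tables, and Gfi1 in Vangl2 P5 read 6.39, 8.23 and 19.1 in the control lungs and 12.8, 7.83 and 345 in the mutant lungs, high in the lung with high Cd3e.

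**Figure D4:**
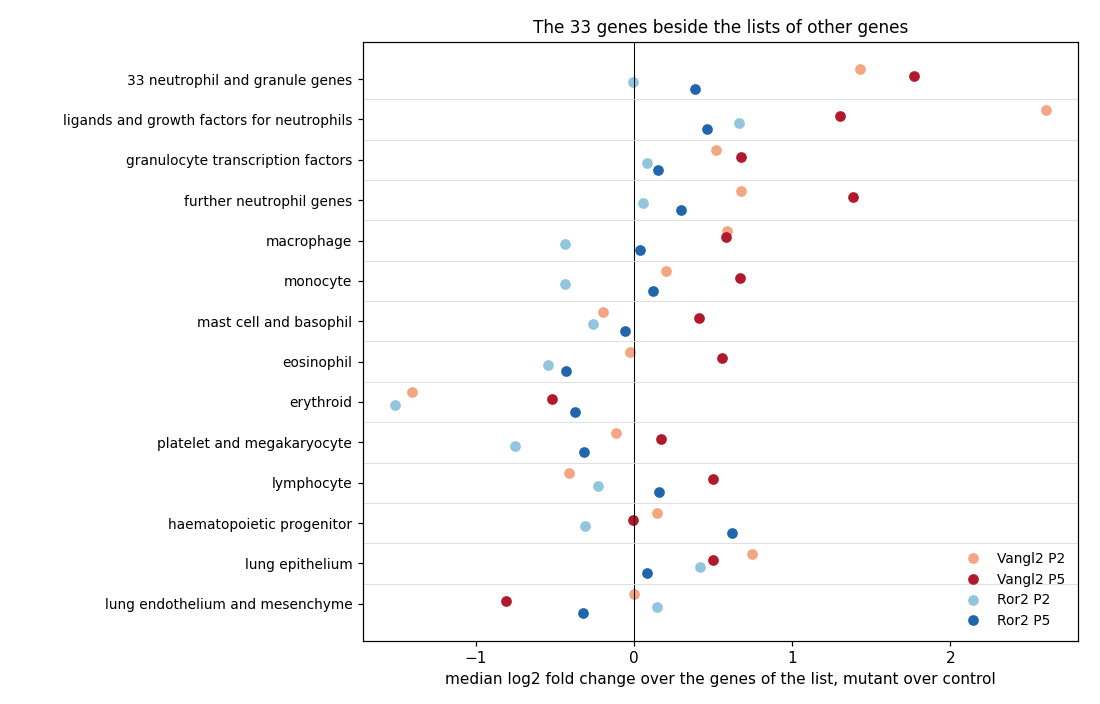
Median log2 fold change, mutant over control, of the 33 genes and of each list of other genes in the 4 tables. In Vangl2 the 33 genes lie at 1.43 and 1.77 and the further neutrophil genes at 0.68 and 1.38, while macrophage genes lie at 0.59 and 0.58 and erythroid genes below 0 in every table.

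Markers of other cell types moved too, and their part in the results above was not tested. Of 11 macrophage markers, C1qa rose in Vangl2 P2 (log2 fold change 0.59 ± 0.13 SE, adjusted p = 0.0498), where 1.5% of all genes rose, and the rest did not pass in any table. The list's summed normalized counts were 5439 to 6018 in the control lungs and 7198 to 9312 in the mutant lungs at P2 and 4847 to 5931 against 8196 to 8411 at P5 in Vangl2. In the Ror2 tables those sums were 5832 to 9353 against 5979 to 6088 and 4736 to 5093 against 4513 to 6020.4. None of 7 monocyte markers passed anywhere, with sums of 2589.8 to 3076 against 2627 to 4003 in Vangl2 P2, 2558 to 11284 against 2985 to 8375 in Vangl2 P5, 4698 to 6622 against 3786 to 5140.1 in Ror2 P2 and 6831 to 7594 against 3695 to 4164 in Ror2 P5. A sum follows its most abundant markers. The median log2 fold changes of the monocyte list were 0.21, 0.67, -0.44 and 0.12 in that order, so the lower mutant sums in Ror2 P5 were not shared by most markers. Among mast cell and basophil markers 0 of 8 passed in any table, and the sums were 3108 to 4861 against 3276 to 4363, 4303 to 4934 against 2145 to 3511, 3726 to 4264 against 4512 to 5350.5 and 3668 to 4000.0 against 4293 to 4657 in the same order. The median log2 fold changes of this list were -0.20, 0.41, -0.26 and -0.06. In Vangl2 P5 and in Ror2 P2 the median thus had the opposite direction to the sums. The eosinophil genes Epx, Prg2 and Ccr3 summed to at most 14.8 normalized reads in any lung summed, with Epx at 0 in all Ror2 P2 lungs, and 0 of them passed in any table.

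Erythroid markers had a median log2 fold change below 0 in every table. Alas2, the first enzyme of heme synthesis in red cells, fell in Vangl2 P2 (log2 fold change -1.51 ± 0.27 SE, adjusted p = 0.0326), where 2.09% of all genes fell, and the other markers tested did not pass in any table. The sums were 41561 to 119110.4 in the control lungs and 21095 to 35131 in the mutant lungs in Vangl2 P2, 16347 to 65684 against 8859.8 to 64876 in Vangl2 P5, 51726 to 74538 against 18160.0 to 58919.6 in Ror2 P2 and 55204 to 166596 against 54909.6 to 115390.5 in Ror2 P5. The alpha-globin gene Hba-a2 was listed at 0 in every lung. No platelet and megakaryocyte marker (4), lymphocyte marker (6) or haematopoietic progenitor marker (5) passed in any table. Platelet and megakaryocyte sums were 842 to 974 against 746 to 959, 416 to 527 against 547 to 724, 904 to 1410.4 against 730.1 to 933 and 563 to 590.4 against 442 to 739, and lymphocyte sums 172 to 364 against 149.9 to 268, 428 to 881 against 419 to 2467, 221 to 471 against 234 to 379 and 494 to 502 against 459 to 653. The highest lymphocyte sum belonged to Vangl2 P5 mutant 3. Progenitor sums were 18062 to 19325 against 14566 to 15903, 19506 to 22466 against 13359.8 to 16441, 14888 to 17828 against 14154 to 16138 and 20315 to 21563 against 18121 to 21655. These sums follow the most abundant markers. The median log2 fold changes of the progenitor list were 0.15, -0.01, -0.31 and 0.62 in the same order, so the lower Vangl2 sums were not shared by most markers.

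Markers of the lung's own cells also differed. Of 7 epithelial markers, the surfactant protein gene Sftpa1 (log2 fold change 1.89 ± 0.34 SE, adjusted p = 0.0329) and Hopx, an alveolar type I marker (log2 fold change 0.75 ± 0.15 SE, adjusted p = 0.0436), rose in Vangl2 P2, where 1.5% of all genes rose, and 0 passed elsewhere. In the order of tables used above, control against mutant sums were 400932 to 482378 against 522868 to 620763, 204542 to 356260.3 against 398419 to 545970.2, 318822 to 385166 against 358901 to 503852 and 287908 to 298170.3 against 321651 to 402047. Of 4 endothelial and mesenchymal markers, the collagen gene Col1a1 fell in Vangl2 P2 (log2 fold change -0.64 ± 0.13 SE, adjusted p = 0.0394), where 2.09% of all genes fell, and 0 passed elsewhere. The sums were 72548 to 73419.5 against 58558 to 66864, 85785 to 90626 against 38367 to 64407, 59679.6 to 68871 against 56167 to 61113 and 76937 to 77751 against 55874 to 67719. All 4 of these markers were lower in each mutant lung than in any control lung in Vangl2 P5 (median log2 fold change -0.81), against 12.5% of all genes. The same held for all 4 in Ror2 P5 (median -0.32), against 14.4% of all genes. In Ror2 P5 the markers Cdh5 and Pdgfra were compared with control lungs 2 and 3 only, since control 1 was set to missing for them. At P2 such a separation was found for 1 of 4 markers in Vangl2, against 14.9% of all genes, and for 1 of 4 in Ror2, against 12.2%. Sums for Ror2 P5 leave out control 1 throughout.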

How the data were processed

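Whole RNA of the left lung lobe was sequenced from 24 mice, 3 in each of 8 groups. The authors deposited 1 table per floxed gene and age with a signal for each gene and lung, which is a normalized read count, that is reads divided by a size factor per lung. The submitters' processing notes name DESeq2 and the build mm10, whereas the aligner, the counting tool and the annotation are not given in the sources used here. The tables also hold the authors' own comparison columns (mean, fold change, standard error, statistic and p-values), which were not used. In 21 of the 24 lungs every value was a whole multiple of one step within a tolerance of 0.02, so whole reads were recovered there, giving a median of 19562511 reads on genes per lung. The step lay too near 1 in Vangl2 P5 control 3 and Ror2 P5 controls 2 and 3, so tests on reads (edgeR 4.0.16 and DESeq2 1.42.0) were made as alternatives for the P2 tables only.

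The main test was limma 3.58.1 in R 4.3.3 (linear model with empirical Bayes and a mean-variance trend) on log2 of the normalized count plus 1, and a gene was tested where 3 or more of the 6 lungs reached a normalized count of 1. P-values are two-sided and were adjusted by Benjamini-Hochberg across every gene in the fit, with a threshold of 0.05. The pseudocount understates the change of low genes. Differences between contrasts were tested in one model over 12 lungs, in which each table kept its own controls. In Ror2 P5, control 1 was set to missing for 8278 genes on chromosomes 5 to 9, X and Y or with no chromosome found. The scripts were tested on simulated data.

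The 33 genes and the other lists were chosen with earlier results of these data known. Values per lung are given for every gene of the set in each table where it passed and, in all 4 tables, for the 2 genes of each role with the highest mean over the 24 lungs, and other genes are named only from the lists. Lists of other genes covered ligands and growth factors, transcription factors, further neutrophil genes, and markers of macrophages, monocytes, mast cells and basophils, eosinophils, red cells, platelets and megakaryocytes, lymphocytes, progenitors, lung epithelium, and endothelium and mesenchyme. Ly6g and Hbb-bt were not analysed here. Levels per kilobase use GENCODE vM21 exon lengths, and promoter windows come from RefSeq.

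Replicate numbers in the titles are shared between groups, with no statement of what they mark. Same-numbered lungs deviated together in Vangl2 P5 (every correlation of gene deviations above 0.1), so the fit with the number as a block is given there beside the main one. Alternatives were other pseudocounts, filters and scalings, the block, each lung left out in turn, 12 lungs in one fit, and the treatment of Ror2 P5 control 1. Nothing says that lungs of a group share a litter or a batch, and p-values measure the spread between these lungs.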

Additional observations from a re-analysis of the deposited data

Results flagged for a closer look

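Il1rn, the interleukin-1 receptor antagonist gene, was singled out because its change differed between the Vangl2 and Ror2 mutants at P5 by a test of the difference itself. The log2 fold change in Vangl2 mutants minus that in Ror2 mutants was 2.43 ± 0.26 SE (limma over 12 lungs, adjusted p = 0.00835). The Vangl2 mutant lungs all lay above their controls and the Ror2 mutant lungs all lay below theirs. Adjusted p ranged from 0.00829 to 0.052 over 15 alternatives, and the difference no longer passed without Ror2 P5 control 3 (2.46, adjusted p = 0.052).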

How the results depend on the processing

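All 421 refitted values of the 27 gene-by-table calls and of the Il1rn difference kept their direction, and 287 stayed below the threshold. The number of the 33 genes called in Vangl2 P2 was 14 and became 22 with DESeq2 on recovered reads and 0 with 12 lungs in one fit, and in Vangl2 P5 it was 13 and became 27 with the replicate block and 26 with 12 lungs in one fit. Shares over all genes are not given for these alternative fits, and the causes of the changes in count were not tested. Leaving out 1 lung gave 0 to 19 genes in Vangl2 P2, 0 to 8 in Vangl2 P5, 0 in Ror2 P2 and 0 to 2 in Ror2 P5, with medians of 1.14 to 1.44, 1.65 to 1.95, -0.35 to 0.37 and 0.086 to 0.58. The difference at P5 between Vangl2 and Ror2 gave 0 to 1 genes when 1 lung was left out, and the other differences gave 0. With the replicate block, Vangl2 P2 had 18 genes called and Ror2 had 0 at either age. Correlations of same-numbered lungs in these tables ran from -0.15 to 0.306, the highest in Ror2 P2 for number 2, and what the numbers mark is not stated. The block changed no count by over 1.5 times other than in Vangl2 P5. The Vangl2 P5 count was 18 after scaling to the upper quartile. The Ror2 P2 median was -0.26 with edgeR on recovered reads, and that of Ror2 P5 was 0.54 with control 1 as deposited. Elane had 0 to 11.4 normalized reads per lung over the 4 tables, so its fold changes rest on few reads.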
